A study of Mus musculus with 12 samples.

Results

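GFRα1+ spermatogonia, the germ cell fraction that holds the spermatogenic stem cells, were set against the whole testes in which they are a minority, across every gene on the array. The comparison used 6 of the 12 arrays of the series, 3 of GFRα1+ cells and 3 of whole testes. It asked which transcripts were more and which were less abundant in the sorted cells than in the organ. GFRα1+ samples were GFP+ cells sorted from GFRα1-EGFP knock-in mice, a line in which the Gfra1 locus drives the reporter, with 1 mouse per sample and 10000 to 20000 cells each. Whole testes samples were 500000 cells each from WT littermates without the reporter allele, and how many animals each one held was not given in the sources used here. Both groups were C57BL/6 mice aged 10 to 11 weeks. Zygosity of the knock-in allele was not given either. The allele and the sort were both present in GFRα1+ samples only, so their effects cannot be told apart. The other 6 arrays held 3 samples each of NGN3+ cells (GFP+ without KIT) and KIT+ cells (GFP+ with KIT), sorted from Ngn3-EGFP mice of the same strain and age, with cells of 2 mice pooled in each NGN3+ sample. They contributed to the estimate of the spread, and their levels are given beside a few genes.

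Glial cell line-derived neurotrophic factor (GDNF) is made by somatic cells of the testis and binds GFRα1, which signals together with the receptor tyrosine kinase RET. In the mouse this signal maintains the undifferentiated spermatogonia from which spermatogenesis starts. Their progeny pass through differentiating spermatogonia, enter meiosis as spermatocytes and then become haploid spermatids, which build an acrosome and a flagellum and replace histones with transition proteins and protamines. Spermatocytes and spermatids make up most of the cells of an adult testis. In such bulk RNA a gene can be lower because fewer cells of a type were present or because each cell held less of the RNA, and these cannot be told apart.

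Levels are the deposited log2 intensities, with 0 set at the 75th percentile of each array, so a level can be compared between arrays for 1 gene but not between genes. Testing needed a probe that the scanner software marked as well above background on 3 of 3 GFRα1+ arrays or 3 of 3 whole testes arrays, which 24209 genes had. Between 50.1% and 50.8% of probes were well above background on GFRα1+ arrays and between 54.8% and 57.6% on whole testes arrays. Pearson's r over all probes was 0.986 to 0.992 between GFRα1+ arrays, 0.992 to 0.994 between whole testes arrays and 0.540 to 0.579 between the groups. GFRα1+ replicates 1 and 2 and whole testes replicate 1 shared slide 1, GFRα1+ replicate 3 lay on slide 2 with the NGN3+ and KIT+ samples, and whole testes replicates 2 and 3 lay on slide 3. Slide 2 was scanned in a session of its own.

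The marker by which the cells were sorted came first. Gfra1 stood at 1.79, 1.48 and 1.70 in the 3 GFRα1+ samples, against −4.10, −4.04 and −4.05 in the 3 whole testes samples. The groups were far apart and neither varied by more than a fraction of the gap. Gfra1 was 52.7-fold higher in GFRα1+ cells (log2 ratio 5.72, SE 0.13, limma adjusted p = 8.82e-11). An exact two-sided permutation test of this gene alone gave p = 0.1, the smallest value that 3 against 3 samples allow. Its mean level was −1.21 in NGN3+ and −3.38 in KIT+ cells. The probe lies on chr19:58311604-58311663 of the mm9 build.

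Ret stood at 1.88, 1.76 and 1.78 in GFRα1+ samples and was not well above background on any whole testes array, so its ratio has only a lower limit. In such cases the mean of the brighter group was set against the dimmest level that still counted as well above background on each array of the dimmer group, or the gene's own level where that was higher. By this limit Ret was at least 84.6-fold higher in GFRα1+ cells (adjusted p = 1.74e-09). Etv5, a transcription factor induced by GDNF in cultured spermatogonia, stood at 5.76, 5.59 and 5.82 in GFRα1+ samples and 2.21, 1.91 and 2.04 in whole testes. Its groups did not overlap, as in 21108 of the 24209 genes tested. Etv5 was 12.7-fold higher in GFRα1+ cells (log2 ratio 3.67, SE 0.15, adjusted p = 7.96e-10). All 3 markers were higher in the sorted cells than in the organ. For Gfra1, whose locus drove the reporter of the sort, this checks the labels and is not a finding.

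**Figure D1:**
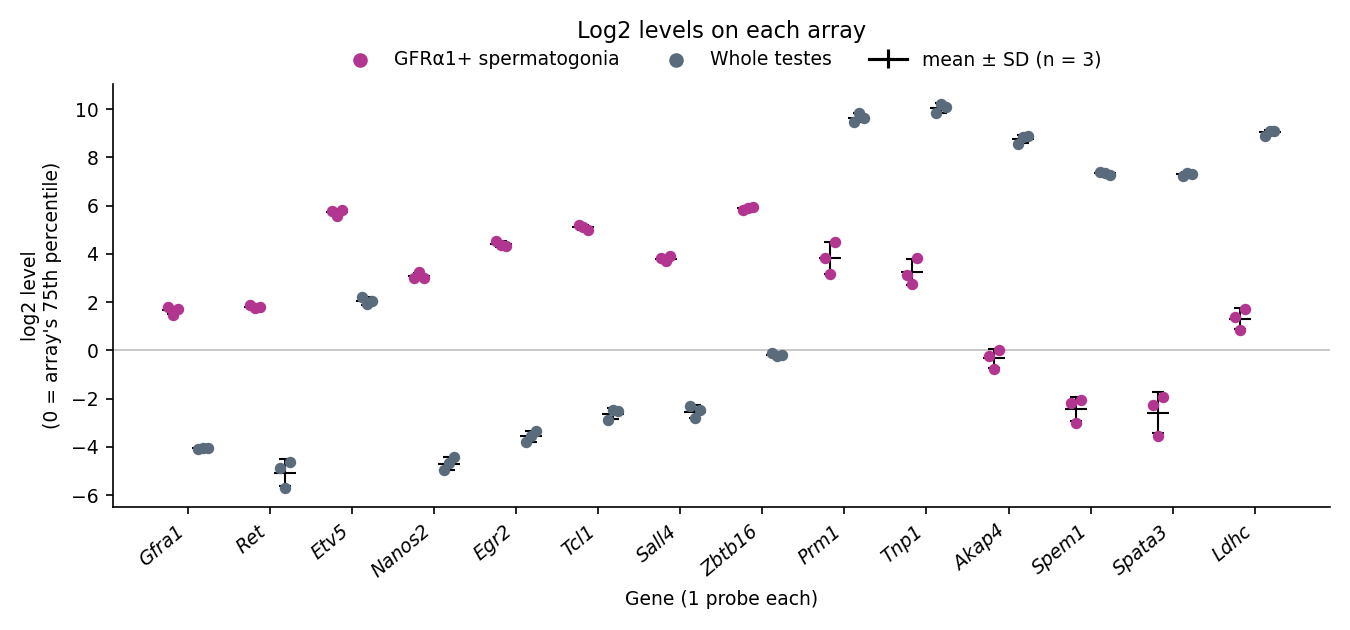
Level of marker genes (vertical, log2 relative to the 75th percentile of each array) on the 3 GFRα1+ arrays and the 3 whole testes arrays, 1 point per array, with the mean and SD (n = 3) in black. Gfra1, Ret and Etv5 lay higher on every GFRα1+ array than on any whole testes array, and the spermatid genes Prm1 and Tnp1 lay lower.

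The transcriptomes differed over most of their genes. Of the 24209 genes tested, 12006 (49.6%) were higher and 9128 (37.7%) were lower in GFRα1+ cells with a limma adjusted p under 0.05, and 3075 did not pass. The falls were the deeper side. A log2 ratio of 2 or more was reached by 5787 genes that rose and 5781 that fell, whereas 761 that rose and 3092 that fell reached 4, and 64 that rose and 1734 that fell reached 6. These counts take the ratios as measured, also for genes dim in 1 group, whose ratios have only a limit. In GFRα1+ samples 850 genes were well above background on all 3 arrays and on no whole testes array, and 3048 genes showed the opposite. The median log2 ratio over all genes tested was 0.37, and each gene list below is read against this median and against the percentages called. Of the calls 56.8% were higher. With the arrays scaled on probes above background on all 6 arrays, or on spiked-in control RNA, the median of all genes moved to −0.036 or −0.053 and the share of calls that were higher to 49.7% or 48.7%, so ratios near 0 are read relative to the median. Only slide 1 held both groups, with 2 GFRα1+ samples and 1 whole testes sample, so slide as a block rests on these 3 arrays, with the lone whole testes array assumed to vary like the other groups. It gave 11671 higher and 8548 lower genes.

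**Figure D2:**
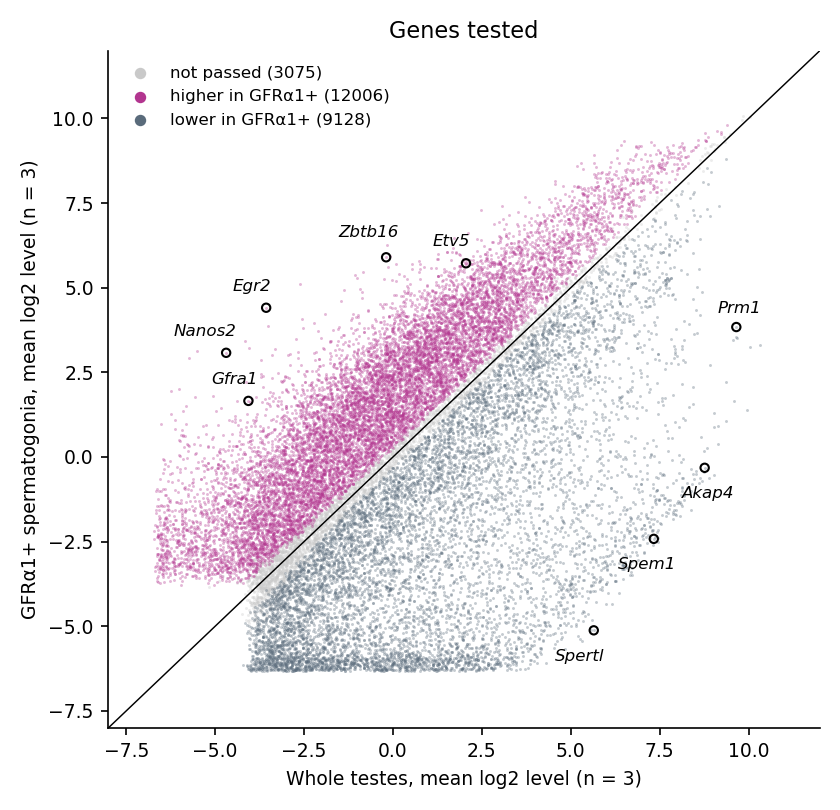
Mean level of each gene tested in GFRα1+ cells (vertical, log2 relative to the 75th percentile of each array) against whole testes (horizontal, same unit), with the called genes coloured by direction. The cloud of 9128 lower genes reaches farther from the diagonal than that of 12006 higher genes.

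The largest rises among genes measured on all 6 arrays were led by Egr2 and Tcl1. Egr2, a zinc-finger transcription factor of the early growth response family, stood at 4.53, 4.36 and 4.34 in GFRα1+ samples, against −3.81, −3.54 and −3.35 in whole testes. This was a 251-fold difference (log2 ratio 7.97, SE 0.15, adjusted p = 8.76e-11). Egr2 is also on the immediate early and stress list below, where the sort and the identity of the cells cannot be told apart. Tcl1, a co-activator of the kinase AKT, stood at 5.21, 5.10 and 4.98 in GFRα1+ samples, against −2.88, −2.47 and −2.53 in whole testes. It was 211-fold higher. Groups that do not overlap were a condition for this ranking, so the separation is not a result. The next were Fst (6.62), whose product follistatin binds activin, Tmem132e (6.52), Asphd2 (6.42) and Egr4 (6.42), followed by Sall4 (6.34), Ccnd2 (6.30), Afp (6.29), Prrx2 (6.22), Pmaip1 (6.18), Tmem132c (6.17), Garem2 (6.12), Zbtb16 (6.09) and Etv4 (6.08), with the log2 ratio in parentheses. Among them Sall4 and Zbtb16 encode zinc-finger factors required in undifferentiated spermatogonia, Ccnd2 encodes cyclin D2 and Afp encodes α-fetoprotein.

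Genes that whole testes did not show above background were headed by Nefm, the medium neurofilament subunit, which stood at 3.17, 2.85 and 3.34 in GFRα1+ samples and was at least 221-fold higher. Nanos2, an RNA-binding protein that keeps spermatogonia undifferentiated, stood at 3.01, 3.23 and 2.99 in GFRα1+ samples and was at least 204-fold higher. Its mean was 1.59 in NGN3+ and −2.64 in KIT+ cells. The others with the highest limits were Irx1 (at least 192-fold), a homeobox factor, Chrna4 (103), a nicotinic acetylcholine receptor subunit, Rspo2 (97.9), a secreted enhancer of WNT signals, Dgkk (86.3), a diacylglycerol kinase, Sfrp2 (71.1), Gjb2 (65.7), a connexin, and Dbx2 (63.2).

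The GDNF receptor and stem state list, which holds genes linked to self-renewal of spermatogonia, was the list with the highest median. Of its 48 genes 46 were tested, 43 rose, 2 fell and 1 did not pass, with a median log2 ratio of 4.53 (3.92 with dim genes at their limit). Over genes above background on all 6 arrays 28 rose and 1 fell. The lists were written with earlier results of these data known, and the cells were sorted by a reporter of the Gfra1 locus. The high rank of this list is therefore a description and not a test. Zbtb16, also known as PLZF, stood at 5.84, 5.89 and 5.96 in GFRα1+ samples, against −0.12, −0.25 and −0.21 in whole testes, and was 68.2-fold higher. Its mean was 5.45 in NGN3+ and 3.51 in KIT+ cells, so it was not particular to GFRα1+ cells. Foxc2, a forkhead factor, was well above background on 1 of 3 whole testes arrays and was at least 192-fold higher. T, the T-box factor brachyury, was not above background on any whole testes array and was at least 49.98-fold higher. Id4, an inhibitor of basic helix-loop-helix factors, stood at 2.73, 2.78 and 2.82 in GFRα1+ samples and −0.94, −0.68 and −0.58 in whole testes (log2 ratio 3.51). Lin28a, an RNA-binding protein of undifferentiated cells, had a log2 ratio of 5.57. The 3 members that did not rise were Epcam (−0.28, adjusted p = 0.078), Dusp4 (−1.39), a phosphatase of MAP kinases, and Etv1 (−3.14), an ETS factor, at least 8.75-fold lower and above background on 1 of 3 GFRα1+ arrays.

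Of 38 spermatogonial transcription factors tested, 31 rose, 6 fell and 1 did not pass (median 3.71). Sox3, an X-linked factor of progenitors, had a log2 ratio of 4.49 and Dmrt1, a doublesex-related factor, of 3.74. Gata2 (−4.03) and Nr6a1 (−2.13), an orphan nuclear receptor of germ cells, fell.

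Genes that the FGF, ERK and PI3K pathways induce or that damp them rose in 21 of 26 cases and fell in 5. Their median was 2.77, or 2.27 with dim genes at their limit. Dusp6, a phosphatase of ERK, stood at 5.37, 5.02 and 5.23 in GFRα1+ samples, against 0.42, −0.24 and 0.06 in whole testes, a log2 ratio of 5.13. Its mean was 2.01 in NGN3+ and −1.06 in KIT+ cells. Il17rd, a membrane inhibitor of FGF receptors, had a log2 ratio of 4.10 and Phlda1 of 4.14. Among 38 receptors of growth factors and cytokines 27 rose, 6 fell and 5 did not pass (median 1.67). Bmpr1b, a BMP receptor, was at least 32.1-fold higher, Ephb1, an ephrin receptor, had a log2 ratio of 4.36 and Erbb2 of 3.66. Mean levels of Bmpr1b were 0.34 in GFRα1+, 0.10 in NGN3+ and −1.85 in KIT+ cells. Fgfr3 rose by 0.98. Notch1 (−1.86) and Csf2rb (−2.64) fell, and Csf2rb was well above background on 2 of 3 GFRα1+ arrays.

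**Figure D3:**
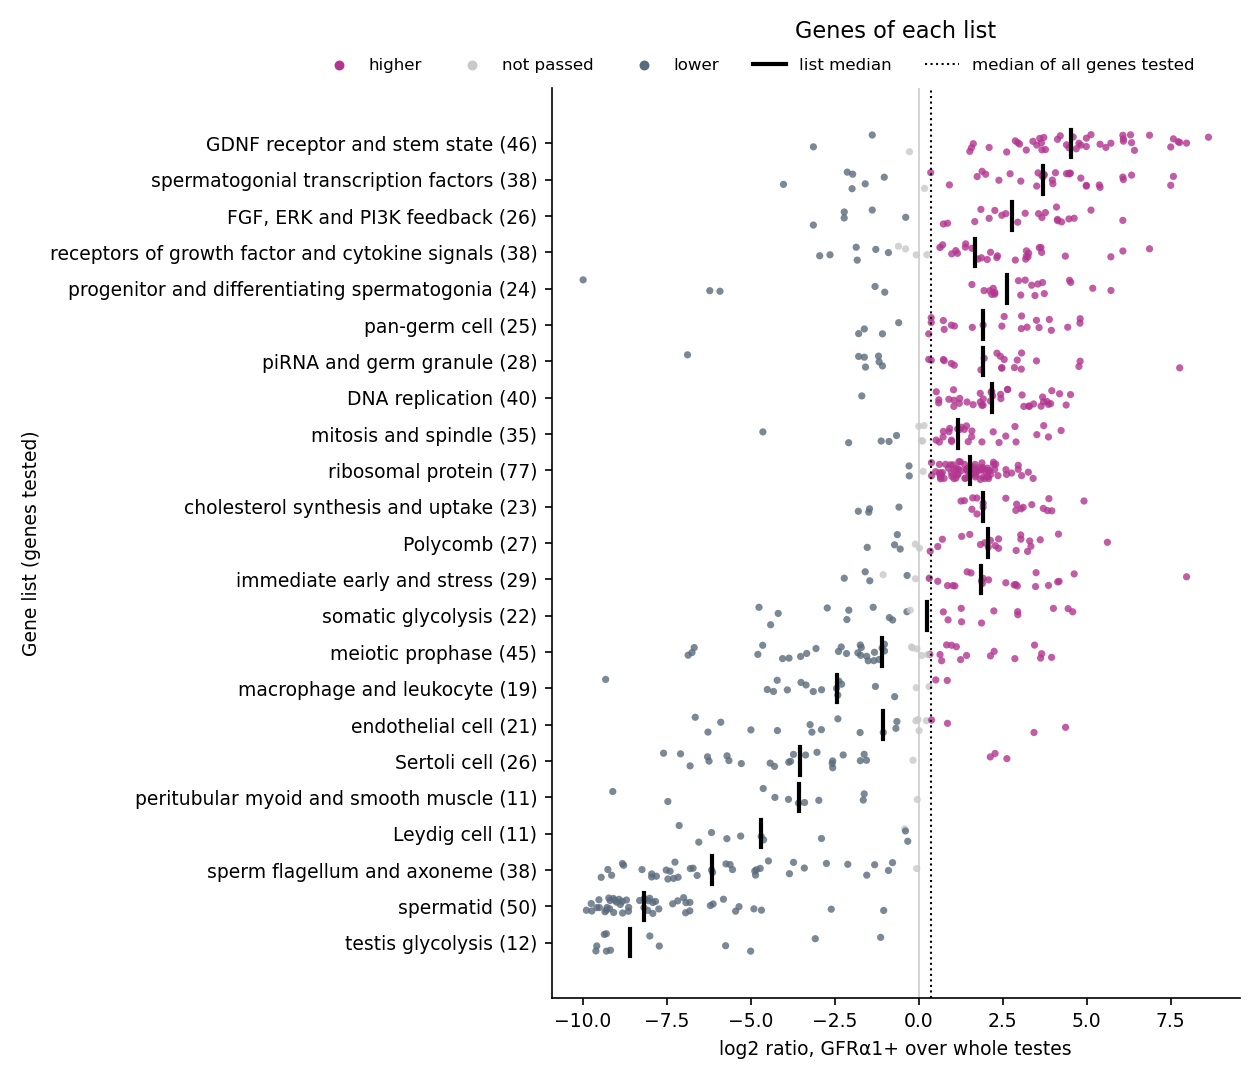
Log2 ratio of GFRα1+ cells over whole testes (horizontal) for the members of each gene list, 1 point per gene tested, with the median of the list as a bar and the median of all 24209 genes, 0.37, as a line. The stem state list has the highest median, 4.53, and the testis glycolysis and spermatid lists the lowest.

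Markers of the steps just after the GFRα1+ state were also higher in the sorted cells than in the organ. Of 24 genes of progenitor and differentiating spermatogonia 19 rose and 5 fell (median 2.62). Neurog3, the basic helix-loop-helix factor also called NGN3, stood at 3.92, 4.33 and 4.15 in GFRα1+ samples, against −0.51, −1.51 and −1.13 in whole testes (log2 ratio 5.18, SE 0.26, adjusted p = 4.89e-09). Its mean in NGN3+ cells was 5.24. Kit, the stem cell factor receptor of differentiating spermatogonia, stood at 1.58, 1.36 and 1.57 in GFRα1+ samples, against 0.30, −0.27 and −0.26 in whole testes, and had a mean of 4.55 in KIT+ cells. The log2 ratio of Kit was 1.58 (adjusted p = 0.000108). Stra8, a retinoic acid target, stood at 5.45, 5.50 and 5.73 in GFRα1+ samples and 3.69, 3.09 and 3.37 in whole testes, a log2 ratio of 2.18. The groups did not overlap for any of these, which also held for 21108 of the 24209 genes tested. Sohlh1, a basic helix-loop-helix factor of spermatogonia, stood at 6.00, 6.06 and 6.08 in GFRα1+ samples, against 1.76, 1.32 and 1.48 in whole testes (log2 ratio 4.52). Tex13a, Dmrtb1 and Ly6k were the largest falls of this list, with log2 ratios of −9.99, −6.22 and −5.92. Tex13a was well above background on 1 of 3 GFRα1+ arrays.

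Genes that germ cells of many stages use varied in how far they rose. Of 25 pan-germ cell genes 21 rose and 4 fell (median 1.92). Dazl, an RNA-binding protein, stood at 4.78, 4.91 and 4.66 in GFRα1+ samples, against 1.84, 1.31 and 1.52 in whole testes (log2 ratio 3.22). Ddx4, the helicase also called VASA, stood at 5.48, 5.52 and 5.24 in GFRα1+ samples and 4.67, 5.29 and 5.16 in whole testes. The groups overlapped for Ddx4, and its log2 ratio was 0.37, the same as the median of all genes to 2 decimals (adjusted p = 0.043). Its sign turned under both other scalings, to −0.034 and −0.050. Tex19.1 (4.81), Dppa4 (4.80), Dnd1 (4.44) and Nanos1 (3.89) rose most clearly.

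Of 28 genes of the piRNA pathway and germ granules, which silence transposons, 21 rose and 7 fell (median 1.90). Piwil2, used in spermatogonia and later cells, had a log2 ratio of 2.47. Piwil4, the nuclear PIWI protein of fetal prospermatogonia and of undifferentiated spermatogonia, was not above background on any whole testes array and was at least 14.1-fold higher. Piwil1, the PIWI protein of spermatocytes and round spermatids, fell by 1.18, and Tdrd6, a Tudor protein of the chromatoid body, by 6.88 on the log2 scale. Prmt5 and Wdr77, which together methylate PIWI proteins, had log2 ratios of 2.93 and 2.85.

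Meiotic genes split. Of 45 genes of meiotic prophase 15 rose, 25 fell and 5 did not pass (median −1.09). Differences were small for some of the best known meiotic genes. Sycp3, of the synaptonemal complex, stood at 3.71, 3.64 and 3.59 in GFRα1+ samples and 2.81, 2.87 and 2.78 in whole testes (log2 ratio 0.83), and Sycp1 had a log2 ratio of 0.33, which became −0.074 and −0.090 under the other scalings. Smc1b, the meiotic cohesin subunit, had one of −0.05 (adjusted p = 0.673). Rec114 (3.96), which is needed for meiotic DNA breaks, and the X-linked genes Nxf2 (3.66) and Tex11 (2.86) rose. Mei4, a partner of Rec114, was at least 2.67-fold higher. Spo11 (−3.86), the enzyme that makes the breaks, Rec8 (−3.34), a cohesin subunit, Brdt (−3.52), a bromodomain protein, Hspa2 (−4.79), Ccna1 (−6.69), the meiotic cyclin A1, and Ybx2 (−6.87), which stores mRNA in spermatids, fell.

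Spermatid genes fell without exception. Of 50 tested, 50 were lower in GFRα1+ cells, with log2 ratios from −9.89 to −1.04 and a median of −8.18. 40 of the 50 were still well above background on all 3 GFRα1+ arrays and 5 on none. Prm1, protamine 1, stood at 3.85, 3.18 and 4.49 in GFRα1+ samples, against 9.47, 9.84 and 9.65 in whole testes (56.3-fold lower, log2 ratio −5.82, SE 0.26, adjusted p = 1.68e-09). Tnp1, transition protein 1, stood at 3.13, 2.76 and 3.81 in GFRα1+ samples, against 9.85, 10.22 and 10.09 in whole testes, and was 113-fold lower. Akap4, an anchoring protein of the sperm fibrous sheath, stood at −0.22, −0.75 and 0.01 in GFRα1+ samples and 8.56, 8.84 and 8.90 in whole testes (log2 ratio −9.08). The gap was many times the spread within either group. In all 3 genes replicate 2 was the lowest and replicate 3 the highest of the GFRα1+ samples.

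The same order appeared in the median level of the whole list, which was −1.59, −1.79 and −1.43 on the 3 GFRα1+ arrays, against 6.59, 6.90 and 6.86 on the whole testes arrays. It lay between 2.67 and 3.46 on NGN3+ arrays and between 3.09 and 3.81 on KIT+ arrays, so GFRα1+ arrays carried less of these transcripts than any other array. GFRα1+ replicate 3 shared its slide with the NGN3+ and KIT+ arrays, and whether its higher level came from there was not tested. The summed level of the list, in multiples of the 75th percentile of an array, was 56.1 to 98.2 in GFRα1+ samples and 9660 to 11489 in whole testes. The smallest falls were those of Fndc3a (−1.04) and Hook1 (−2.61), both known from mouse mutants with malformed spermatids, and probes of Hook1 differed in direction.

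The largest falls over all genes measured on all 6 arrays were of the same kind. H2al2b, a histone H2A-like gene on the Y chromosome, led them with a log2 ratio of −10.09, and Spem1, a gene of late spermatids, stood at −2.19, −2.99 and −2.07 in GFRα1+ samples against 7.38, 7.33 and 7.29 in whole testes (log2 ratio −9.75). Between them in size were AI507597, 1700042G07Rik, Nudt16l2, Gm6760, Spata3, Rnf133, Lelp1, 1700034E13Rik, Cabs1, the X-linked histone gene H2al1o, Cep295nl and 1700020A23Rik, with Hmgb4, a high-mobility-group protein of spermatids, beside Spem1. Genes not above background on any GFRα1+ array were headed by Spertl (at least 1016-fold lower), Tmbim7 (961), Ppp1r2-ps7 (918) and Izumo3 (827), a member of the family of the sperm protein IZUMO1. Of 38 genes of the flagellum and axoneme, 37 fell and 1 did not pass (median −6.15).

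Promoters of spermatid genes are shown because CREM, the factor that drives many of them, binds a cAMP response element with the core TGACGTCA. Crem itself stood at −1.66, −0.43 and −1.81 in GFRα1+ samples, against 5.54, 5.75 and 5.61 in whole testes (log2 ratio −6.93). In RefSeq promoters on GRCm38.p6, from 250 bases before to 50 bases after the start, 41 of the 50 spermatid genes were found. The full element TGACGTCA was in 2 of the 41 (4.88%), Spag4 and Izumo1, against 2.03% of all 27025 genes of the table. The looser palindrome TGANNTCA, which includes TGACGTCA and was chosen after sequences were seen, was in 22 of the 41 (53.7%), against 15.9% of all genes. The last 120 bases before the start are given in lower case with the match in capitals, for Prm1 (chr16:10796824-10796943, minus strand), Tnp1 (chr1:73015900-73016019, minus), Akap4 (chrX:7067395-7067514, plus), Spag4 (chr2:156065093-156065212, plus) and Izumo1 (chr7:45621691-45621810, plus), each 5′ to 3′ on the strand of the gene.
Prm1: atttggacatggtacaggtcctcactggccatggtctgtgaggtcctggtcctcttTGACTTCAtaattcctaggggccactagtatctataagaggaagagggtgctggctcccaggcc
Tnp1: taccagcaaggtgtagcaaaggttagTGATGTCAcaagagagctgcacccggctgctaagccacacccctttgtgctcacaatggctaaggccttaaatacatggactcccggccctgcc
Akap4: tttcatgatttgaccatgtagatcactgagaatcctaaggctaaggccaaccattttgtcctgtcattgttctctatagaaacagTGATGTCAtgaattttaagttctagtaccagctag
Spag4: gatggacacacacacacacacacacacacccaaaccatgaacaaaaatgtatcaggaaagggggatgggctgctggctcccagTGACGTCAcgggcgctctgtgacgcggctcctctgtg
Izumo1: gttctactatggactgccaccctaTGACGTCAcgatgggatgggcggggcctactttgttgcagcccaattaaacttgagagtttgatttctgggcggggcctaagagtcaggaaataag

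The first base of the match lay 64 bases before the start in Prm1, 94 in Tnp1, 35 in Akap4, 37 in Spag4 and 96 in Izumo1. Over all 13182 genes that were tested and had a promoter in the table, the share with TGANNTCA differed along the whole range of ratios. It was 34.4% of 517 genes with a log2 ratio of −8 or lower, 21.6% of 1270 genes between −8 and −4, 15.1% of 1435 genes between −4 and −2, 11.8% of 6323 genes between −2 and 2, 11% of 3153 genes between 2 and 4 and 8.68% of 484 genes at 4 or higher. The same letters in reverse order, ACTNNAGT, were in 7.93%, 7.56%, 6.41%, 5.98%, 5.65% and 6.2% of these groups. The full element TGACGTCA did not follow this order and was in 1.93%, 2.44%, 2.72%, 3.56%, 3.36% and 1.65% of them, against 3.18% of all genes tested. The 5-base core TGACG, searched on both strands, was in 15.3% of the lowest group, 34.1% of the genes between −2 and 2 and 25% of the highest group. Other lists that fell did not all hold TGANNTCA, which was in 4 of 34 flagellum and axoneme genes (11.8%), 2 of 36 meiotic prophase genes (5.56%) and 4 of 11 testis glycolysis genes (36.4%). It was also in 3 of 7 Schwann cell genes (42.9%) and 2 of 5 red blood cell genes (40%). A match is a description of the letters and was not tested as a binding site.

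Most marker genes of the main somatic cells of the testis were lower as well. Genes of Leydig cells, which make testosterone, fell in 10 of 11 cases (median −4.69, or −4.13 with dim genes at their limit). Hsd3b1, a steroidogenic dehydrogenase, was not above background on any GFRα1+ array, and stood at 2.04, 1.10 and −0.27 in whole testes. It was at least 39.4-fold lower in GFRα1+ cells, although whole testes themselves differed widely. Cyp11a1, which makes the first steroid from cholesterol, was at least 25.7-fold lower, and Cyp17a1 did not pass (−0.42, adjusted p = 0.119). Peritubular myoid genes fell in 10 of 11 cases (median −3.58, or −3.40 with dim genes at their limit). Among them was Acta2, smooth muscle actin (at least 140-fold lower, above background on 1 of 3 GFRα1+ arrays).

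Of 26 genes of Sertoli cells, which nurse the germ cells, 22 fell, 3 rose and 1 did not pass. The median was −3.55, or −2.80 with dim genes at their limit. Cst9, a cystatin, stood at −1.65, −1.10 and −0.80 in GFRα1+ samples, against 6.53, 6.29 and 6.42 in whole testes (log2 ratio −7.60). Sox9 (−2.25) and Wt1 (−1.74), the defining transcription factors, fell less, and Sox9 was well above background on 2 of 3 GFRα1+ arrays. Amh was not above background on any array, and Gdnf was not tested. Tjp1 (2.62), Trf (2.13) and Fgf8 (2.27) rose. The summed level of the list was 87.6 to 99.4 in GFRα1+ samples and 392 to 454 in whole testes.

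Of 19 macrophage and leukocyte genes 15 fell, 2 rose and 2 did not pass (median −2.45, or −2.11 with dim genes at their limit). Adgre1 (at least 6.52-fold lower), Tyrobp (5.06) and Ptprc (4.31) were not above background on any GFRα1+ array. Cd3e (0.85) and Fcer1g (0.51) rose, and Cd14 (0.31) and Csf1r (−0.07) did not pass. Csf1r had a mean of 0.99 in GFRα1+ samples and 1.06 in whole testes. Mrc1 fell by 0.72, with a mean of −0.71 in GFRα1+, −3.72 in NGN3+ and −4.31 in KIT+ cells, so this list was not lower throughout either. Aif1 fell most (−9.32) and had a mean of 4.46 in NGN3+ and 4.77 in KIT+ cells, the arrays on which the spermatid list was also higher than in GFRα1+ cells. Of 21 endothelial genes 13 fell, 4 rose and 4 did not pass (median −1.06), with Robo4 at least 24.4-fold lower and Vwf at −4.21. Ets1 (3.43), Erg (at least 20.3-fold) and Flt1 (0.86) were among those that rose. Pecam1 (−0.08), Kdr (0.23), Tek (−0.02) and Sox18 (0.01) were those that did not pass, so this list was not lower throughout. Pericyte and fibroblast genes fell in 9 of 12 cases (median −3.03, or −2.38 with dim genes at their limit). The 3 that rose were Fbln1 (3.69), Pdgfra (2.325) and Col1a1 (2.14). Smaller lists divided, with 5 higher and 5 lower of 10 Schwann cell and neural crest genes, 3 and 3 of 6 rete testis genes, and 1 and 4 of 5 red blood cell genes. Among the rete testis genes Krt18 (3.64), Pax8 (at least 10.8-fold) and Krt19 (at least 5.23-fold) rose, and Defb19, Krt8 and Emx2 fell. Many somatic genes were dim in GFRα1+ cells, and over genes above background on all 6 arrays 12 Sertoli, 4 Leydig, 5 myoid, 3 pericyte and fibroblast, 6 endothelial and 6 macrophage and leukocyte genes were lower.

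Genes of proliferation were higher in the sorted cells. Of 40 DNA replication genes 39 rose and 1 fell (median 2.19). Mcm2, part of the replicative helicase, stood at 4.36, 4.35 and 4.23 in GFRα1+ samples, against 0.28, −0.17 and 0.25 in whole testes (log2 ratio 4.19). Cdt1 (4.52), which loads that helicase, Pola1 (4.39), Tk1 (3.96) and Pold1 (3.64) rose, and Rfc2 (−1.70) fell. Mitosis and spindle genes were less uniform, with 26 higher, 5 lower and 4 not passing of 35 (median 1.16). Cenpa (4.24), the centromeric histone, Mad2l1 (3.86) and Ccna2 (3.72), the cyclin A of somatic divisions, rose, whereas Plk1 (−1.12) and Kif2c (−4.64) fell.

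Ribosomal protein genes rose almost as a block, 74 of 77, with 2 lower and 1 not passing (median 1.53). Their summed level was 22565 to 23527 in GFRα1+ samples and 9584 to 9869 in whole testes. Rpl14 had a log2 ratio of 3.26 and Rpl10a of 3.41, whereas Rpl41 (−0.28, adjusted p = 0.0307) and Rpl36 (−0.29, adjusted p = 0.0312) were the members called lower, and neither was called with slide as a fixed block, with the replicate number as a block or without any 1 of GFRα1+ replicates 1 and 2 and whole testes replicates 2 and 3, and Rpl41 was not called without GFRα1+ replicate 3 either. Of 23 genes of cholesterol synthesis and uptake 19 rose and 4 fell (median 1.92). Insig1 (3.96) and Lss (3.05) rose, and Fdft1 (−1.49) fell.

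Among genes of DNA methylation 8 rose, 5 fell and 2 did not pass of 15 (median 1.23). Dnmt1, the maintenance methyltransferase, stood at 2.63, 2.52 and 2.84 in GFRα1+ samples, against −0.97, −1.59 and −1.34 in whole testes (log2 ratio 3.96). Dnmt3b (3.69) rose, whereas Dnmt3l (−2.97), the cofactor of de novo methylation, and Tet1 (−1.19) fell. Polycomb genes rose in 21 of 27 cases, fell in 4 and did not pass in 2 (median 2.07). Phf19 was at least 36.8-fold higher and Cbx2 had a log2 ratio of 4.16, whereas Ezh2, the methyltransferase of the complex, fell (−0.64). Genes of H3K9 methylation rose in 15 of 18 cases (median 1.14, with 9 higher under spike-in scaling), led by Suv39h1 (3.69). The list holds demethylases too, which did not go one way. Kdm4d fell (−6.71), Kdm4c (0.93), Kdm1a (0.89), Kdm4a (0.79) and Kdm4b (0.69) rose, and Kdm3a did not pass.

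Adhesion receptors of the integrin and cadherin families rose in 17 of 24 cases, fell in 4 and did not pass in 3 (median 1.63). Itga6, used to enrich spermatogonial stem cells, stood at 5.05, 5.04 and 5.21 in GFRα1+ samples, against 1.76, 1.27 and 1.46 in whole testes (log2 ratio 3.60), and Itgb1 had a log2 ratio of 3.40. Cdh1, E-cadherin, was at least 32.4-fold higher and Cdh3 at least 41.6-fold, with Cdh3 well above background on 2 of 3 whole testes arrays. Itga2 fell and was at least 27.6-fold lower.

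The retinoic acid list, the signal that drives differentiation of spermatogonia, was evenly divided, with 10 higher, 10 lower and 2 not passing of 22 (median 0.071). Rarg, a retinoic acid receptor, stood at 2.01, 2.28 and 2.16 in GFRα1+ samples, against −0.77, −0.99 and −0.91 in whole testes (log2 ratio 3.04). Its mean in NGN3+ cells was 3.79. Crabp1 (2.97), which binds retinoic acid, and Cyp26a1 (at least 10.3-fold), which degrades it, were higher. Cyp26b1 (−3.62), another degrading enzyme, Rdh11 (−4.68) and Bco1 (−6.28) were lower. Cyp26a1 was above background on 2 of 3 whole testes arrays and Bco1 on 2 of 3 GFRα1+ arrays.

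Immediate early and stress genes rose in 22 of 29 cases, fell in 4 and did not pass in 3. Their median was 1.87, or 1.55 with dim genes at their limit. Fos stood at 0.18, 0.91 and 0.21 in GFRα1+ samples, against −3.66, −3.28 and −4.30 in whole testes (log2 ratio 4.18), and its mean was −3.30 in NGN3+ and −3.31 in KIT+ cells. Egr1 had a log2 ratio of 4.63, and its mean was 3.82 in GFRα1+, 3.31 in NGN3+ and 0.00 in KIT+ cells. Egr2 (7.97) rose most of this list. Ppp1r15a (4.14), Hspa1a (2.94) and Jun (1.87) also rose, and Klf4 (−1.59) fell. The GFRα1+ cells were sorted and the whole testes were not, so the sort and the identity of the cells cannot be told apart for this list.

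Of the 2 lists of energy genes, only the testis list went one way. All 12 genes of the testis glycolysis list, which also holds the transporters Slc2a5 and Slc16a7, fell (median −8.59). In the somatic glycolysis list 11 genes rose, 10 fell and 1 did not pass (median 0.24). Gapdh stood at 7.90, 7.98 and 7.79 in GFRα1+ samples and 5.69, 5.58 and 5.68 in whole testes (log2 ratio 2.24). Its spermatid form Gapdhs stood at −0.43, −1.71 and −0.14 in GFRα1+ samples, against 8.63, 8.59 and 8.59 in whole testes (log2 ratio −9.36). In the somatic list Aldoc (4.58) and Pgam1 (2.94) rose, and Tpi1 (−4.76), Hk1 (−4.41) and Ldha (−4.18) fell. Pgam2 of the testis list fell by more (−9.30).

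A wider set of 30 pairs of a broadly expressed gene and its testis-specific relative was examined, of which 29 had both members tested. In 16 pairs the somatic member rose and the testis member fell. Somatic members rose in 23 of the 29 pairs and fell in 6, and testis members fell in 21, rose in 3 and did not pass in the others. Cetn2 against Cetn1 (3.02 and −6.94), Cox8a against Cox8c (3.23 and −4.73) and Pdha1 against Pdha2 (4.45 and −3.08) went opposite ways. Rad21l (at least 6.12-fold higher), Cstf2t (2.19) and Slc25a31 (2.67) were testis members that rose.

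Many of these relatives are thought to take over from genes of the X chromosome, which is silenced in spermatocytes. Of 12 somatic members placed on the X chromosome 11 rose, among them Rpl10 (2.29, with Rpl10l at −0.42) and Smc1a (3.01, with Smc1b at −0.05). The exception was Gk, which was at least 308-fold lower and above background on 1 of 3 GFRα1+ arrays. Pgk1, an X-linked gene whose probe the array file places on chromosome 3, had a log2 ratio of 0.73, and its testis relative Pgk2 one of −9.18.

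**Figure D4:**
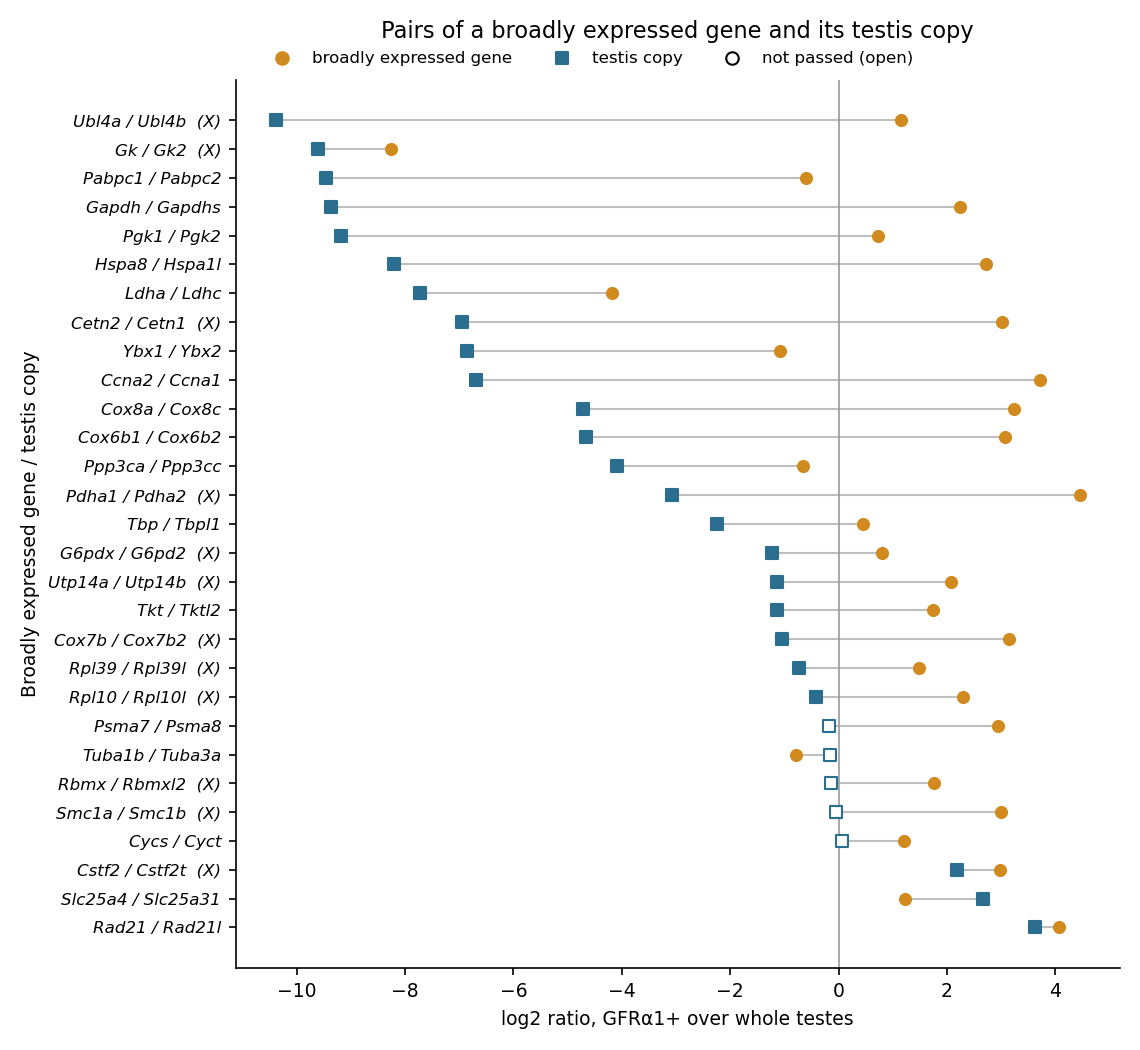
Log2 ratio of GFRα1+ cells over whole testes (horizontal) for the 29 pairs of a somatic gene and its testis-specific relative, 1 row per pair with a line joining its 2 members. In 16 pairs the somatic member was higher and the testis member lower in GFRα1+ cells.

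The X chromosome as a whole differed from the autosomes at both ends of the range. Of 1033 X-linked genes tested 574 (55.57%) rose and 373 (36.11%) fell, with a median log2 ratio of 0.81. Of 22885 autosomal genes 49.6% rose and 37.55% fell, with a median of 0.37, and medians of single autosomes ran between 0.027 on chromosome 14 and 0.62 on chromosome 13. The X median therefore lay above that of each autosome. A log2 ratio of 4 or more in favour of GFRα1+ cells was reached by 61 X-linked genes (5.905%), against 3.041% of autosomal genes. One of −4 or lower was reached by 172 X-linked genes (16.65%), against 12.46% of autosomal genes. Over genes well above background on all 6 arrays the medians were 1.09 for the X chromosome and 0.74 for autosomes.

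X-linked gene families, chosen after their values were seen, took opposite sides. All 8 Xlr genes tested rose (median 4.15), as did 16 of 17 Mage genes (median 2.44), 13 of 19 Rhox homeobox genes (median 3.22) and 4 of 5 Fthl17 ferritin-like genes. All 6 H2al1 histone genes (median −9.44), all 4 Cypt genes (−9.43) and all 4 Btbd35f genes (−8.84) fell. Of these, 3 Btbd35f genes and 1 Cypt gene were not above background on any GFRα1+ array, so their ratios have only a limit. Copies within some of these families are near identical, so probes may read more than 1 of them and the members are not independent. Other families were more mixed, with log2 ratios from −6.78 to 5.375 in Rhox and from −7.77 to 5.05 in Mage genes. Fthl17f stood at 6.72, 6.44 and 6.70 in GFRα1+ samples, against 2.33, 1.89 and 2.16 in whole testes (log2 ratio 4.50). Of 17 Y-linked genes tested 6 rose and 8 fell.

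**Figure D5:**
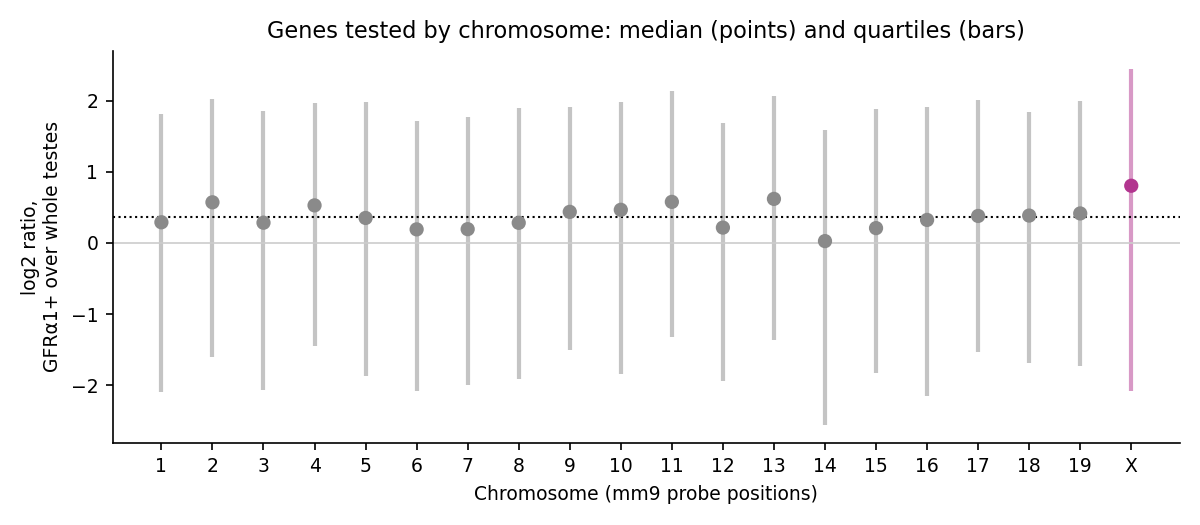
Median log2 ratio of GFRα1+ cells over whole testes (vertical) for the genes tested on each chromosome, with the quartiles as bars and the median of all genes, 0.37, as a dotted line. The median of the X chromosome was 0.81, above the autosomes, which ran between 0.027 and 0.62.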

How the data were processed

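RNA of sorted germ cells and of whole testes was hybridised to Agilent 1-colour mouse gene expression arrays, 25 ng per sample per the labels. The log2 values that the authors deposited are, as checked against the scanner files, the processed intensity of each probe minus the 75th percentile of its array, with no centring of genes; the authors' own fit used GeneSpring. The scanner intensity columns, deposited per array, gave the calls of well above background (the scanner software's flag), and carried the alternatives of background and scaling.

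Control spots were left out, 1 probe per gene was kept (the highest mean over the 6 arrays), and limma 3.58.1 in R 4.3.3 was fitted to all 12 arrays in 4 groups, with Benjamini-Hochberg adjustment over 24209 genes and a threshold of 0.05. Of 36315 gene names 23605 are RefSeq symbols. In 661 of 5751 genes with more than 1 tested probe, probes were called in opposite directions. No spot was saturated. For whole testes no source says that samples came from separate animals, so p-values may measure technical spread in part. The number of arrays, 3 per group, limits the precision.

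Genes named are the 15 largest rises and falls above background on all 6 arrays, the 10 largest limits per direction, up to 4 members per list and direction with the smallest adjusted p, the pairs, Gfra1, Ret and Etv5. The 15 largest were taken among called genes with a RefSeq symbol whose groups did not overlap. Others from the lists were chosen after their values were seen. Members and lists were chosen with earlier results of these data known. Bases before a start and probe positions come from different builds (GRCm38.p6 and mm9) and were not combined. On simulated data with known changes the scripts were tested before use. Alternatives were other scalings, background, filters and probe choices, the methods' t-test, slide, scan session (added after seeing the data) and replicate blocks, and leaving out each sample.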

Additional observations from a re-analysis of the deposited data

How the results depend on the processing

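Across 22 alternatives 300 of 330 named genes kept direction and call, and 39 of 62 list counts stayed within 1.5 times. Of the 23 list counts that moved, 16 did so only under the filter that requires all 6 arrays, most of them somatic lists, and the others were small counts of endothelial, leukocyte, myoid, mitosis, ribosomal and Polycomb genes and H3K9 genes higher (15, against 9 under spike-in scaling). Totals moved by over 1.5 times under that filter alone. The filter, which drops genes that are dim in 1 group, left 5131 lower genes against 9128, and 186 X-linked lower genes against 373, with 10410 higher genes. Leaving out 1 sample gave 11795 to 12107 higher and 8953 to 9226 lower genes, 553 to 570 and 361 to 371 X-linked, and 16 to 17 pairs.

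Scaling on probes above background on all 6 arrays gave 10507 higher and 10646 lower genes, and spike-in scaling 9272 and 9765. Under these Egfl7 turned to −0.025 and −0.041, Sycp1 to −0.074 and −0.090 and Ddx4 to −0.034 and −0.050. Averaging the probes of a gene turned Kdm6b to 0.57, Tbp to −0.17 and Tuba1b to 0.37, and Kdm6b, whose probes disagree, was −1.53 with all samples but −1.675 without whole testes replicate 1, 2.64 without whole testes replicate 2 and 2.67 without replicate 3, when another probe became the brightest. Scan session as a block gave 11975 and 9195 genes. With the replicate number as a block, 11937 genes were higher and 9071 lower. Same-numbered samples did not deviate together (r −0.014, −0.031 and −0.052), so the numbers were not read as pairs. The cause of these differences was not tested unless stated. Genes near background have only a limit, since signal over background bounds their ratios.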
